A study of Rattus norvegicus with 6 samples.

Results

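Serine proteases of the rat testis were followed through the germ cell stages of 6 single-cell libraries. The set was chosen by name alone: every gene symbol of the count tables that begins with Prss, Tryx, Klk or Tmprss followed by a digit. That rule found 55 of 21170 genes, of which 30 are Prss genes, 14 are kallikreins (Klk), 10 are transmembrane proteases (Tmprss) and 1 is Tryx5. The study set the testes of 3 SD rats, an outbred laboratory strain, that had been through a stress model built on a terrifying sound against those of 3 normal SD rats. Age, length of exposure and time of sampling are not given in the labels. Each animal gave 1 library, made from dissociated fresh tissue with the Singleron GEXSCOPE kit. The libraries are called stressed 1 to 3 and control 1 to 3.

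Serine proteases cut other proteins with a reactive serine, and most are made as inactive precursors. The best known in sperm is acrosin, which is stored in the acrosome, the vesicle that caps the sperm head. Several Prss and Tmprss proteins of mouse sperm, among them those of Prss37, Prss55 and Tmprss12, are needed for the maturation of the sperm surface protein ADAM3 or for the passage of sperm into the oviduct. Kallikreins are secreted proteases with large gene families in rodents, and Tmprss proteins are anchored in the cell membrane.

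The stressed libraries held 409, 2506 and 2233 cells and the control libraries 2342, 1801 and 2453, with totals of 16756543, 93898869 and 74453303 and of 94130353, 73650164 and 114984746 counts. Of all 11744 cells, 1363 were spermatocyte-like (in meiosis), 3756 round spermatid-like and 6328 elongating spermatid-like. Libraries shared 2 cell barcodes in total. Stressed 1 stood apart: it gave 24, 99 and 60 cells to the 3 classes, and 224 of its cells lay in an unnamed cluster led by Apoe and Fos, to which the other libraries gave 0 to 45 cells. Its elongating spermatid-like cells were also of another makeup, since 66.7% of them lay in the cluster led by Dcdc2c and Fam71a, against 9.29% to 16.2% in the other libraries. The 12 macrophage markers measured, of which 2 were at 0 in spermatocyte-like and 0 in elongating spermatid-like cells, summed to 1004, 51.4 and 68.8 CPM (counts per 1000000 counts of the same class and library) in stressed and 53.7 to 64.6 CPM in control spermatocyte-like cells. They summed to 345, 70.6 and 84.9 CPM in stressed and 77.4 to 143 CPM in control round spermatid-like cells, and to 230.0, 56.4 and 65.2 CPM in stressed and 53.2 to 78.0 CPM in control elongating spermatid-like cells. The 9 stromal markers summed to 791, 14.4 and 7.48 CPM in stressed and 10.9 to 19.6 CPM in control spermatocyte-like cells. The part of these other cells in results that rest on stressed 1 was not tested.

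Of the 55 members, 53 had at least 1 count, and Tmprss5 and Klk15 had none. A mean of 10 CPM in at least 1 germ cell class was reached by 20 members, which are 15 of the 30 Prss genes, 3 of the 10 Tmprss genes, 1 of the 14 kallikreins and Tryx5. CPM values are not corrected for gene length, so they are compared between cells and not between genes. Prss23, a secreted protease of many tissues, is among the 20 through 1 cell: it had 59, 0 and 0 counts in spermatocyte-like cells of stressed 1 to 3, and all 59 of stressed 1 came from 1 of 24 cells. The 32 members that were neither among these nor had a low p in a comparison of the animals had totals of 1 to 1388 counts.

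Promoters of 5 members are shown first, because their genes are neighbours in the RefSeq annotation (assembly GRCr8) and are alike or unlike in the stage of their mRNA, as described further on. Prss44, Prss45 and Prss46 lie in a row on chromosome 8, with the pseudogene Prss44-ps1 between the first and second of them. Prss58 and Tryx5, which RefSeq lists as Prss59, lie side by side on chromosome 4. Each line gives the 150 bases before the annotated start, 5′ to 3′ along the strand of the gene. Capitals mark GTTGCC, a short motif of RFX factors, or TGACGT, a short motif of CREB-type factors, on either strand.

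Prss44, chr8:119669962-119670111, + strand: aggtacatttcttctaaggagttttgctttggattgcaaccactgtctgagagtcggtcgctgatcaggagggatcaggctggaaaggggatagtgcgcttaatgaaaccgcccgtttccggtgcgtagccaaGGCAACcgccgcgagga

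Prss45, chr8:119698563-119698712, + strand: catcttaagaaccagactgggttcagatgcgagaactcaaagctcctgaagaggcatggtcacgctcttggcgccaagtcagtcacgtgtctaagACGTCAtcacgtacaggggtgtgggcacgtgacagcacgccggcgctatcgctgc

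Prss46, chr8:119707537-119707686, + strand: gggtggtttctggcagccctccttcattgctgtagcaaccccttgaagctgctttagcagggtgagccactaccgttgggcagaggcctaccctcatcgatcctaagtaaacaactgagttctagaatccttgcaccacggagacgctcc

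Prss58, chr4:70723648-70723797, - strand: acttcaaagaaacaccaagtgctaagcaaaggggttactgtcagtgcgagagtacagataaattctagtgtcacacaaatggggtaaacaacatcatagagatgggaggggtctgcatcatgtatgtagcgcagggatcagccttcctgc

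Tryx5 (Prss59), chr4:70738035-70738184, - strand: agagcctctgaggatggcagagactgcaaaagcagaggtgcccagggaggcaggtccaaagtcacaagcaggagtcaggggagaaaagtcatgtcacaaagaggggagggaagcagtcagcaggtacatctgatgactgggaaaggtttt

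The capitals in Prss44 are GTTGCC read on the opposite strand, and those in Prss45 are TGACGT read on the opposite strand. The searched letters are not in the windows shown for Prss46, Prss58 and Tryx5. RefSeq promoter entries, which reach from 250 bases before to 50 bases after the start, were found for 41 of the 55 members. A gene can have several entries, and these members have 50. GTTGCC was present in 2 of the 50 entries (of Prss21 and Prss44), against 12.2% of the 33469 entries of all genes. TGACGT was present in 3 of the 50 (of Prss45 and Prss56), against 7.94%, and the palindrome TGACGTCA, which contains TGACGT, in 2 of the 50 (of Prss56), against 1.83%.

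Members were spread over the whole of germ cell development. Cells were clustered and ordered with all 55 members left out, and the clusters were merged into 9 steps: 1 to 3 are spermatocyte-like, 4 and 5 round spermatid-like and 6 to 9 elongating spermatid-like. Step 1 was led by Hormad1 and Psma8, step 3 by Aurka and Tpx2, step 7 by Kansl1 and Cst13, and step 9 by Hspa1l, Akap4, Oaz3 and Smcp. Values by step are means over libraries with at least 10 cells in the step, which are 3 libraries in step 1, 5 in steps 2, 8 and 9, and 6 in the others, with the SD over those libraries. They are CPM of plain totals, and a highest step is the highest on that scale. Of 20 members, 12 had the same highest class with TMM scaling, which sets the library factors from the bulk of genes. With TMM the highest class became the elongating one for Prss39, Prss40, Prss45, Prss46, Prss54, Tmprss9 and Prss36, and the round one for Prss21. Summed over the members, the level was 839.5 ± 22.8 CPM in step 1, 1528 ± 194 in step 3, 2770.3 ± 178 in step 4, 7802 ± 1734 in step 7 and 1839 ± 97.4 in step 9. Genes of late spermatids were not at 0 in early steps: Tnp1, a transition protein of condensing spermatids, had 378 ± 279.5 CPM in step 1 and 40069 ± 14444 CPM in step 8. Early levels of late members that are an equally small part of their highest level are therefore not read as expression.

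**Figure D1:**
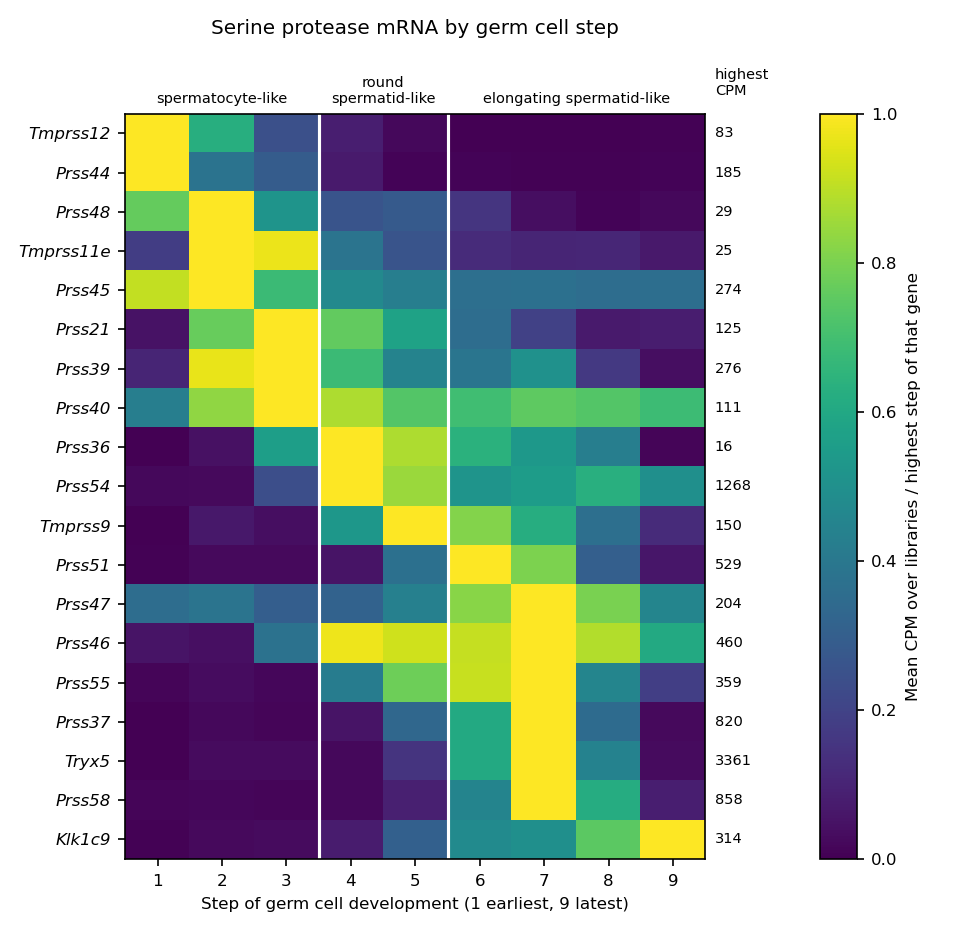
Heat map of 19 members (rows) over the 9 steps (columns), coloured by the mean CPM of plain totals over libraries divided by that of the highest step of the gene; the numbers on the right give that highest CPM. Highest levels run from step 1 for Tmprss12 and Prss44 to step 9 for Klk1c9.

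The earliest members were Tmprss12 and Prss44. Tmprss12, a membrane-anchored protease that mouse sperm need to enter the oviduct, had 83.3 ± 7.13 CPM in step 1, 20.3 ± 6.87 in step 3 and 0.248 ± 0.486 in step 6. Prss44, a testis protease of the mouse, had 185 ± 104 CPM in step 1, 54.0 ± 29.3 in step 3 and 1.79 ± 1.53 in step 6. Across libraries, elongating spermatid-like cells held 0 to 0.444 CPM of Tmprss12 and 0 to 2.07 CPM of Prss44, so both were low there in every library.

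On the plain scale, further members had their highest means in steps 2 and 3, which hold the later spermatocyte-like cells. For Tmprss11e and Prss48 the spermatocyte-like class was also the highest with TMM, but for Prss39, Prss40, Prss45 and Prss21 it was not. Prss39 and Prss40 correspond to the mouse acrosomal proteases TESP1 and TESP2 and lie on chromosome 9 with Cfc1 between them. Both had their highest mean in step 3, at 276 ± 64.9 CPM for Prss39 and 111 ± 33.0 CPM for Prss40, but in step 9 Prss39 had 10.4 ± 5.07 CPM and Prss40 still 76.2 ± 15.4 CPM. With TMM, Prss40 was called higher at both transitions between classes, as described further on, so no highest step that holds under both scalings is given for it. Prss21 encodes testisin, a protease tethered to the sperm membrane. It had 6.01 ± 8.42 CPM in step 1, 125 ± 27.4 in step 3 and 9.08 ± 2.98 in step 8. Tmprss11e, a transmembrane protease also known from epithelia, had 24.9 ± 18.9 CPM in step 2 and 1.69 ± 2.21 in step 9, and Prss48 had 28.6 ± 20.1 and 0.566 ± 0.711 CPM in the same steps. Prss45 had 249 ± 41.4 CPM in step 1, 274 ± 62.3 in step 2 and 98.0 ± 22.2 in step 8. Step 2 was the highest in 3 of 6 libraries, of which stressed 3 and control 3 had too few cells in step 1 to compare. Stressed 2 and control 2 were higher in step 1, and stressed 1 had too few cells in both steps. With TMM Prss45 was called higher at the later transition. Prss42, known in mouse as the spermatocyte protease TESSP2, stayed low, at 6.31 ± 7.70 CPM in step 2 and 4.35 ± 2.45 in step 3. The value of step 2 rests on control 2, at 19.7 CPM: without that library the means were 2.97 CPM in step 2 and 5.17 in step 3, so no highest step is given.

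Round spermatid-like cells were the highest class of Prss54, Prss46, Prss36 and Tmprss9 with plain totals and not with TMM. The mean of Prss36 was low even there, at 15.1 CPM, and in control 3 this class was its lowest, at 1.59 CPM. Prss54 had 34.0 ± 28.8 CPM in step 2, 306 ± 71.7 in step 3, 1268 ± 222 in step 4 and still 632 ± 58.8 in step 9. Prss46 had 18.3 ± 15.2 CPM in step 2 and 449 ± 65.0 in step 4, and its means lay between 407 and 460.4 CPM from step 4 to step 8. Only 2 of the 6 libraries had their highest Prss46 value in step 7, the step with the highest mean, so no single highest step is given for it. Prss36, called polyserase-2 for its several protease domains, had 15.8 ± 10.5 CPM in step 4, with a wide spread between libraries that is described further on. Tmprss9, called polyserase-1, was highest in step 5 on the plain scale, at 150.1 ± 21.7 CPM.

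A block of members had their highest means in elongating spermatid-like cells of steps 6 and 7. Prss51 was highest in step 6, at 529 ± 84.6 CPM, and its neighbour on chromosome 15, Prss55, in step 7, at 359 ± 56.0 CPM. Prss55 already had 280 ± 32.8 CPM in step 5, which is round spermatid-like. Prss37, which mouse sperm need for ADAM3, had 43.7 ± 36.3 CPM in step 4, 819.5 ± 406 in step 7 and 21.6 ± 4.90 in step 9. Tryx5, a trypsin-like protease, had 70.1 ± 30.8 CPM in step 4, 3361 ± 955 in step 7 and 103 ± 25.8 in step 9. Its neighbour Prss58 had 18.1 ± 11.3, 858 ± 463 and 73.5 ± 19.2 CPM in the same steps. All 6 libraries had their highest values of Prss37, Prss58 and Tryx5 in step 7. Prss47 had its highest mean there too, at 204 ± 48.3 CPM, over 60.6 ± 21.5 CPM in step 3. Stressed 1, with 13 cells in step 7, had 1629 CPM of Prss37 and 1797 CPM of Prss58 there, against 529.6 to 768 and 620.5 to 763 CPM in the other 5 libraries.

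Klk1c9 was the latest member and the kallikrein that passed 10 CPM. It belongs to a cluster of rat tissue kallikrein genes that are near copies of each other, and how reads shared between them were counted is not given in the sources used here. Its level was 24.1 ± 9.61 CPM in step 4, 150.1 ± 37.1 in step 6 and 314 ± 55.2 in step 9. In step 9, stressed 2 and 3 had 286 and 398 CPM and control 1 to 3 had 326, 248 and 313 CPM. All 5 of these libraries had their highest value in that step.

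**Figure D2:**
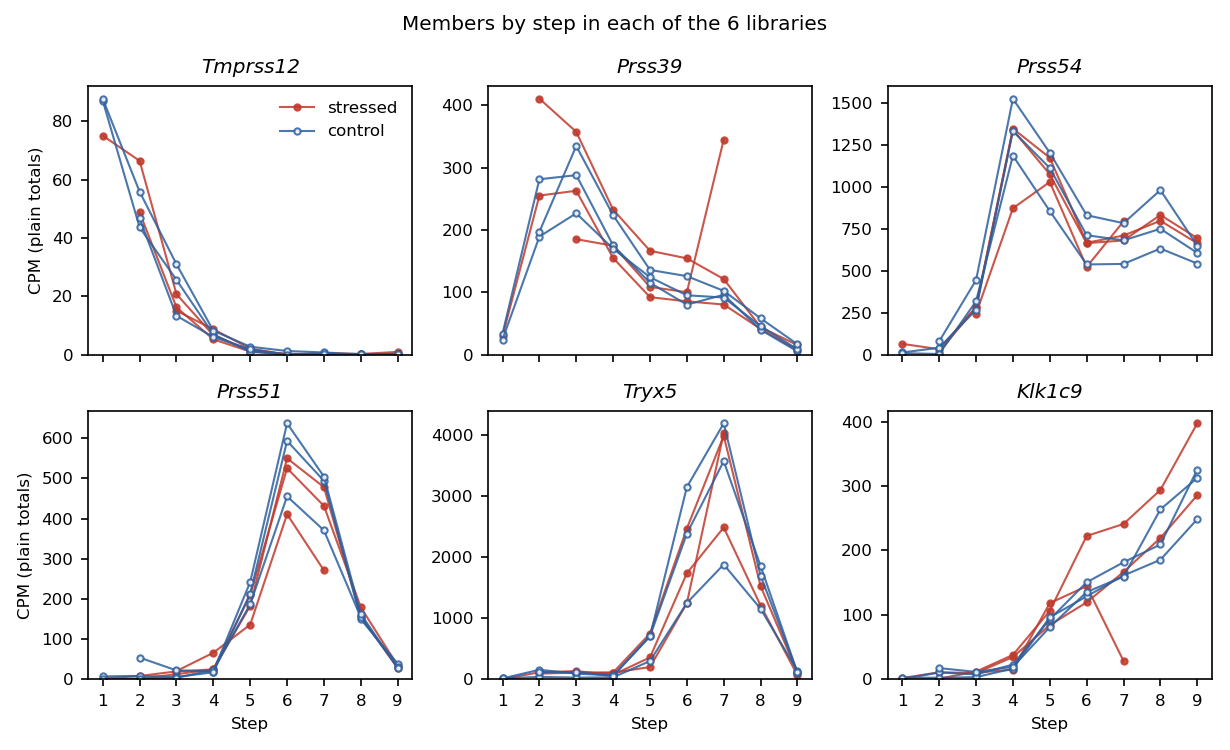
CPM of 6 members (panels) over the 9 steps (x axis), 1 line per library, with filled red points for stressed and open blue points for control libraries; points are missing where a library had fewer than 10 cells. The highest step moves from 1 for Tmprss12 to 9 for Klk1c9, and in step 7 the 13 cells of stressed 1 lie apart, at 345 CPM of Prss39 and 28.3 CPM of Klk1c9.

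Neighbouring genes had like courses in some places and unlike courses in others. In the row on chromosome 8, Prss44 was highest in step 1 and near 0 in step 6, and Prss46 was low in step 2 and high from step 4 to step 8. Prss45 and Prss42, of the same row, have no highest step that holds over the libraries. Prss50, next to Prss46, had 480 counts in all, 79 of them in 1 cell. On chromosome 4, Prss58 and Tryx5 both had their highest level in step 7. These are descriptions and carry no test.

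Differences between classes were tested on counts summed per library and class, with the library as a block (edgeR quasi-likelihood test, Benjamini-Hochberg adjustment over all genes). The scaling of libraries moves these differences. Over all genes, the median log2 difference between elongating and round spermatid-like cells was -0.37 with TMM scaling, -0.17 with RLE scaling and -1.42 with plain totals. Between round spermatid-like and spermatocyte-like cells the medians were -0.03, 0.09 and -0.59. A direction between classes is therefore read only where TMM scaling and plain totals make the same call, and other calls are given as calls of 1 scaling.

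Between round spermatid-like and spermatocyte-like cells, 23 members passed the filter on low counts, and 12 were called higher and 4 lower with TMM, against 36.2% and 31.9% of all genes (68.2% in either direction). With plain totals 10 were higher and 8 lower, against 29.6% and 45.9%. Under both scalings 10 members were higher: Prss37, Prss58, Prss46, Prss54, Tryx5, Tmprss9, Prss36, Prss55, Prss51 and Klk1c9. Under both, 4 were lower: Tmprss11e, Prss44, Tmprss12 and Prss42. With RLE scaling 12 members were higher and 3 lower, so not all 4 lower calls were kept there. Of all 11221 genes tested, 4253 were higher and 3284 lower with RLE. Without control 3, 10 members were higher and 7 lower with TMM. Of all genes, 7778 were then called in either direction, against 7648 with all 6 libraries. A member that passed the filter through 1 class alone had to differ, so these counts describe the set and support nothing further.

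Prss54 had 942, 1257 and 1252 CPM in stressed and 1271, 1036 and 1424 CPM in control round spermatid-like cells, against 136, 182 and 213 CPM in stressed and 193, 214 and 387 CPM in control spermatocyte-like cells. Every round value lay above every spermatocyte value, and the log2 difference was 3.05 (SE 0.12, edgeR adjusted p = 2.7e-08). Prss55, needed in mouse for the passage of sperm into the oviduct, had 171 to 232 CPM in round spermatid-like and 1.15 to 10.8 CPM in spermatocyte-like cells over the 6 libraries, a log2 difference of 5.55 (SE 0.42, edgeR adjusted p = 1.1e-06). Tmprss12 moved the other way, with 3.82 to 5.73 CPM in round spermatid-like and 21.7 to 44.1 CPM in spermatocyte-like cells, a log2 difference of -2.13 (SE 0.24, edgeR adjusted p = 2.1e-05). Neither of these pairs of ranges overlaps. Prss40 and Prss47 were called higher with TMM and not with plain totals: their log2 differences were 0.35 and 0.73 with TMM and -0.21 and 0.17 with plain totals.

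Between elongating and round spermatid-like cells, 26 members were tested, and 14 were higher and 5 lower with TMM, against 27.2% and 40.8% of all genes (68% in either direction). With plain totals 7 were higher and 11 lower, against 12.2% and 65.4%. Under both scalings 7 were higher: Prss37, Prss58, Tryx5, Prss47, Prss55, Prss51 and Klk1c9. Under both, 5 were lower: Tmprss11e, Prss48, Prss44, Tmprss12 and Prss21. With RLE scaling 14 members were higher and 4 lower, so not all 5 lower calls were kept there. Of all 11452 genes tested, 3531 were higher and 4222 lower with RLE. Called higher with TMM and not with plain totals were Prss40, Prss46, Prss54, Prss45, Tmprss9, Prss53 and Klk1c3. The log2 differences of the first 5 of these were 0.23 to 0.92 with TMM and -0.80 to -0.11 with plain totals, so no direction is given for them.

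Tryx5 had 1966, 1600.1 and 2222 CPM in stressed and 1999, 1106 and 2806 CPM in control elongating spermatid-like cells, against 146, 219 and 320.5 CPM in stressed and 242, 151 and 256 CPM in control round spermatid-like cells. The ranges lie far apart, with a log2 difference of 4.16 (SE 0.12, edgeR adjusted p = 1.4e-09), and of 3.13 with plain totals. Prss58 had 427 to 743 CPM in elongating and 27.1 to 50.2 CPM in round spermatid-like cells, a log2 difference of 4.75 (SE 0.18, edgeR adjusted p = 4.0e-09). Testisin moved the other way: Prss21 had 57.0, 12.3 and 12.4 CPM in stressed and 18.0, 19.4 and 14.1 CPM in control elongating spermatid-like cells, against 59.1 to 138 CPM in round spermatid-like cells of the 6 libraries. It was lower in all 6, with a log2 difference of -1.11 (SE 0.13, edgeR adjusted p = 1.6e-05). Stressed 1 had the highest Prss21 value in both classes. Without stressed 1, 15 members were higher and 4 lower with TMM. Of all genes, 8446 were then called in either direction, against 7782 with all 6 libraries.

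**Figure D3:**
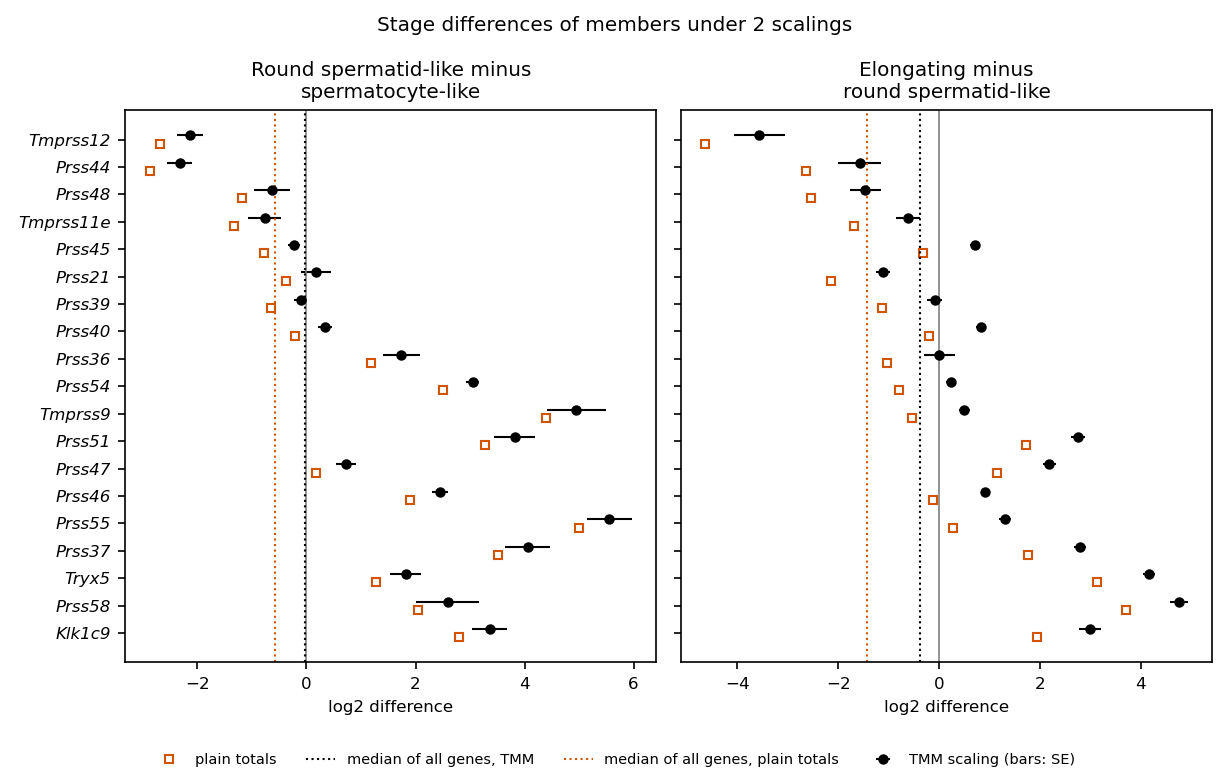
Log2 differences of members (rows) between round spermatid-like and spermatocyte-like cells (left) and between elongating and round spermatid-like cells (right), with TMM scaling (bars are SE) and with plain totals; dotted lines mark the median of all genes under each scaling. Plain totals carry Prss40, Prss46, Prss54, Prss45 and Tmprss9 across 0 on the right and leave Tryx5 at 3.13 and Prss58 at 3.72.

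Acrosin, its binding protein and Adam2 had their highest levels before step 6, on the plain scale. Acr, the acrosin gene, was highest in step 4 at 683 ± 107 CPM, and Acrbp, whose protein binds the acrosin precursor, in the same step at 609 ± 77.2 CPM. Adam2, a sperm surface ADAM protein, was highest in step 2, at 548 ± 113 CPM. Pcsk4, the proprotein convertase of spermatids, had similar means from step 4 to step 7, with 82.9 ± 35.7 CPM in step 4, 95.01 ± 29.3 in step 6, the highest mean, and 90.8 ± 31.5 in step 7. Of 6 libraries, 1 had its highest Pcsk4 value in step 6, so no highest step is given.

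Gene lists of proteases outside the name rule, inhibitors, ADAM maturation and acrosome structure were counted in the same fits. Unlike the members, their genes were not left out of the clustering. Acrv1, Spaca1, Spaca7, Izumo1, Zpbp2, Lyzl4 and Lyzl6 were also markers that named round spermatid-like clusters, and Tex101 a marker of spermatocyte-like clusters. Differences of these genes between the classes follow in part from the naming. The counts therefore describe the lists and support nothing further. Of 25 genes of acrosome structure and zona binding, 21 were higher and 4 lower in round spermatid-like than in spermatocyte-like cells with TMM, and 20 and 4 with plain totals. Of all genes, 36.2% were higher and 31.9% lower with TMM, and 29.6% and 45.9% with plain totals. The median log2 difference of the 25 genes was 3.32 with TMM. Izumo2, of the Izumo family of sperm proteins, was higher by 5.08 (SE 0.16). The lysozyme-like Lyzl6, one of the naming markers, was higher by 4.31 (SE 0.15). Gopc, a Golgi protein of acrosome formation, was lower, at -2.73 (SE 0.21). In elongating against round spermatid-like cells 5 of the 25 were higher and 18 lower with TMM, and 2 and 22 with plain totals, with a TMM median of -1.64. The shares of all genes were 27.2% and 40.8% with TMM and 12.2% and 65.4% with plain totals. The sperm hyaluronidase Spam1 was lower, at -5.83 (SE 0.20), as was Dpy19l2, which holds the acrosome to the nucleus, at -3.21 (SE 0.12). Dnajb3, a DnaJ co-chaperone, was higher, at 2.27 (SE 0.14).

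Of 8 serine protease inhibitors tested, 6 were higher and 2 lower in round spermatid-like than in spermatocyte-like cells with TMM, and 3 and 3 with plain totals. Of all genes, 36.2% were higher and 31.9% lower with TMM, and 29.6% and 45.9% with plain totals. In elongating against round spermatid-like cells 3 of 10 were higher and 5 lower with TMM, and 3 and 6 with plain totals. The shares of all genes were 27.2% and 40.8% with TMM and 12.2% and 65.4% with plain totals. Serpina1, the alpha-1-antitrypsin gene, was higher at both transitions, by 3.18 (SE 0.41) and 3.22 (SE 0.20). Spink2, an acrosin inhibitor, was lower at both, at -0.28 (SE 0.06) and -1.59 (SE 0.12). Of 6 proteases outside the name rule, 4 were higher and 1 lower at the earlier transition with TMM, and 4 and 2 with plain totals. At the later transition it was 4 and 1 of 6 with TMM and 2 and 2 with plain totals. The shares of all genes just given apply to these counts too, and nothing particular to either list is read from them. Acr was lower at the later transition, at -0.57 (SE 0.12), and Masp1, a complement protease, was higher, at 2.51 (SE 0.29).

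Genes for the maturation of sperm ADAM proteins were called in both directions. Of 20 tested, 6 were higher and 7 lower in round spermatid-like than in spermatocyte-like cells with TMM, and 6 and 11 with plain totals. Of all genes, 36.2% were higher and 31.9% lower with TMM, and 29.6% and 45.9% with plain totals. Nothing particular to the list is read from these counts. Calr3 and Ace, both tied to ADAM3 in mouse sperm, were higher, by 5.18 (SE 0.27) and 3.46 (SE 0.18). The chaperone Clgn was lower, at -0.57 (SE 0.07). So was the surface protein Tex101, at -1.25 (SE 0.19), but it is one of the markers that named spermatocyte-like clusters. In elongating against round spermatid-like cells 8 of 18 were higher and 6 lower with TMM, and 1 and 11 with plain totals. The shares of all genes were 27.2% and 40.8% with TMM and 12.2% and 65.4% with plain totals. Adam2 was lower at both transitions, at -0.32 (SE 0.12) and -1.82 (SE 0.13). The log2 differences of these lists are from the TMM fits of edgeR, in which every gene named has an adjusted p under 0.05, and each has the same sign with plain totals.

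No member was called between stressed and control rats. Of 23, 27 and 25 members tested in the spermatocyte-like, round and elongating classes and 31 in whole libraries, 0 had an edgeR adjusted p under 0.05. Of all genes, 0%, 0.0166%, 0.00896% and 0.00689% were called in these 4 fits, with 0.00832% higher and 0.00832% lower in round spermatid-like cells. DESeq2 called 0 members too, and 3, 9, 6 and 4 genes in all. At an unadjusted p under 0.05 stood 0, 1, 1 and 1 members (Klk1c9, Prss42 and Prss23 in the last 3 fits), against 1.83%, 2.91%, 1.65% and 1.38% of all genes. The 4 gene lists also had 0 calls in each of the 4 fits. In sums over whole libraries, fewer cells of a stage and less RNA per cell cannot be told apart.

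The members with a mean of at least 100 CPM give the size of difference seen. In spermatocyte-like cells the log2 differences of 7 such members, stressed minus control, lay between -0.62 and 0.59, with SEs of 0.28 to 0.49. In round spermatid-like cells those of 8 such members lay between -0.15 and 0.39, with SEs of 0.17 to 0.31. In elongating spermatid-like cells those of 9 such members lay between -0.13 and 0.20, with SEs of 0.25 to 0.37. In whole libraries those of all 11 such members were above 0 with TMM, between 0.015 and 0.97, with SEs of 0.27 to 0.45, and none was called. In plain CPM the stressed mean was below the control mean for Prss46, Prss54, Prss39, Prss45 and Prss55, and above it for the others. For Prss54 the means were 766 CPM in stressed and 844 CPM in control libraries. No shared direction is therefore read. Tryx5 averaged 1929 ± 313 CPM in stressed and 1971 ± 850.4 CPM in control elongating spermatid-like cells (SD, n = 3 each), and its groups overlapped. Prss37 had 805, 339 and 422 CPM in stressed and 394, 420.0 and 370.1 CPM in control elongating spermatid-like cells. Here stressed 1 was high and stressed 2 was the lowest of all 6.

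Prss46 was lower in each stressed library than in each control library in spermatocyte-like cells, without passing the test. It had 89.9, 90.0 and 100.4 CPM in stressed and 134, 132 and 179.7 CPM in control cells. The log2 difference was -0.62 (SE 0.28, edgeR adjusted p = 1.0). It was the 1 of 23 tested members without overlap between groups there, against 8.8% of all genes. In round spermatid-like cells Prss46 had 409, 413 and 393 CPM in stressed and 542, 493 and 396 CPM in control cells, and the groups overlapped.

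Klk1c9 had 60.6, 60.1 and 60.3 CPM in stressed and 42.5, 52.7 and 38.5 CPM in control round spermatid-like cells. Every stressed value lay above every control value, with a log2 difference of 0.52 (SE 0.22, edgeR adjusted p = 1.0). Such a lack of overlap was seen in 2 of 27 members, Klk1c9 and Prss42, against 8.3% of all genes. Within both steps of this class the Klk1c9 groups overlapped. In step 4 it had 14.6, 34.3 and 37.6 CPM in stressed and 22.5, 16.4 and 19.1 CPM in control libraries, and in step 5, where its level is higher, 118, 83.9 and 106 CPM in stressed and 92.9, 96.1 and 80.7 CPM in control libraries. Step 5 held 46.5%, 46.9% and 31.9% of the round spermatid-like cells of stressed 1 to 3 and 26.6%, 41.7% and 30.8% of those of control 1 to 3; the part of this makeup in the class difference was not tested. In whole libraries Klk1c9 had 178, 149.9 and 156 CPM in stressed and 124, 134 and 112 CPM in control libraries, again without overlap. In elongating spermatid-like cells it averaged 204 ± 79.9 CPM in stressed and 204 ± 19.2 CPM in control cells (SD, n = 3 each), with overlap. The stress difference of Klk1c9 in elongating minus that in round spermatid-like cells was -0.63 (SE 0.36, edgeR adjusted p = 1.0). For such a change of the stress difference, 0 of 28 members and 0% of all genes were called, and 0 members and 2.29% of all genes had an unadjusted p under 0.05 (DESeq2: 0 members).

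Prss36 split the control animals. It had 20.8, 21.0 and 20.3 CPM in stressed and 3.90, 23.2 and 1.59 CPM in control round spermatid-like cells, so control 2 lay with the stressed libraries and control 1 and 3 far below. In elongating spermatid-like cells it had 9.31, 12.4 and 10.5 CPM in stressed and 0.678, 8.56 and 2.23 CPM in control cells, and in whole libraries 14.9, 13.7 and 13.6 CPM in stressed and 1.88, 13.3 and 1.91 CPM in control libraries. The order of the libraries was alike: control 2 lay close to the stressed libraries and control 1 and 3 were low. Control 2 also differed from the other controls in the makeup of its classes. The cluster led by Cd109 held 8.46%, 40.2% and 1.12% of the round spermatid-like cells of control 1 to 3. In stressed 1 to 3 it held 44.4%, 35.8% and 9.88%. Within step 4, Prss36 had 17.4, 22.6 and 24.1 CPM in stressed and 4.30, 25.2 and 1.22 CPM in control libraries. Within step 5, which holds the Cd109 cluster, it had 25.1, 19.5 and 12.5 CPM in stressed and 2.90, 20.7 and 2.37 CPM in control libraries. The part of the class makeup in the Prss36 values was not tested. The log2 differences were 1.22 (SE 0.77), 1.44 (SE 0.69) and 1.45 (SE 0.72) in these 3 fits, with edgeR adjusted p = 1.0 in each. Without control 2 the whole-library difference was 3.09, with an edgeR adjusted p of 0.128. Control 2 was the control close to the stressed libraries, so leaving it out had to widen the difference. That fit therefore supports nothing further. Prss8, the gene next to Prss36 on chromosome 1, had 48 counts in all libraries together.

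Prss42 had few counts. In elongating spermatid-like cells it had 0, 5 and 3 counts in stressed and 17, 33 and 16 counts in control libraries, and the class totals of stressed 1 are the smallest. The CPM values of the groups did not overlap, with a log2 difference of -2.52 (SE 1.02), and the edgeR adjusted p was 1.0. Of 25 members, 3 had groups without overlap in this class, against 6.11% of all genes. In spermatocyte-like cells Prss42 had 4.61, 4.92 and 3.13 CPM in stressed and 6.28, 3.67 and 3.77 CPM in control cells, with overlap.

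**Figure D4:**
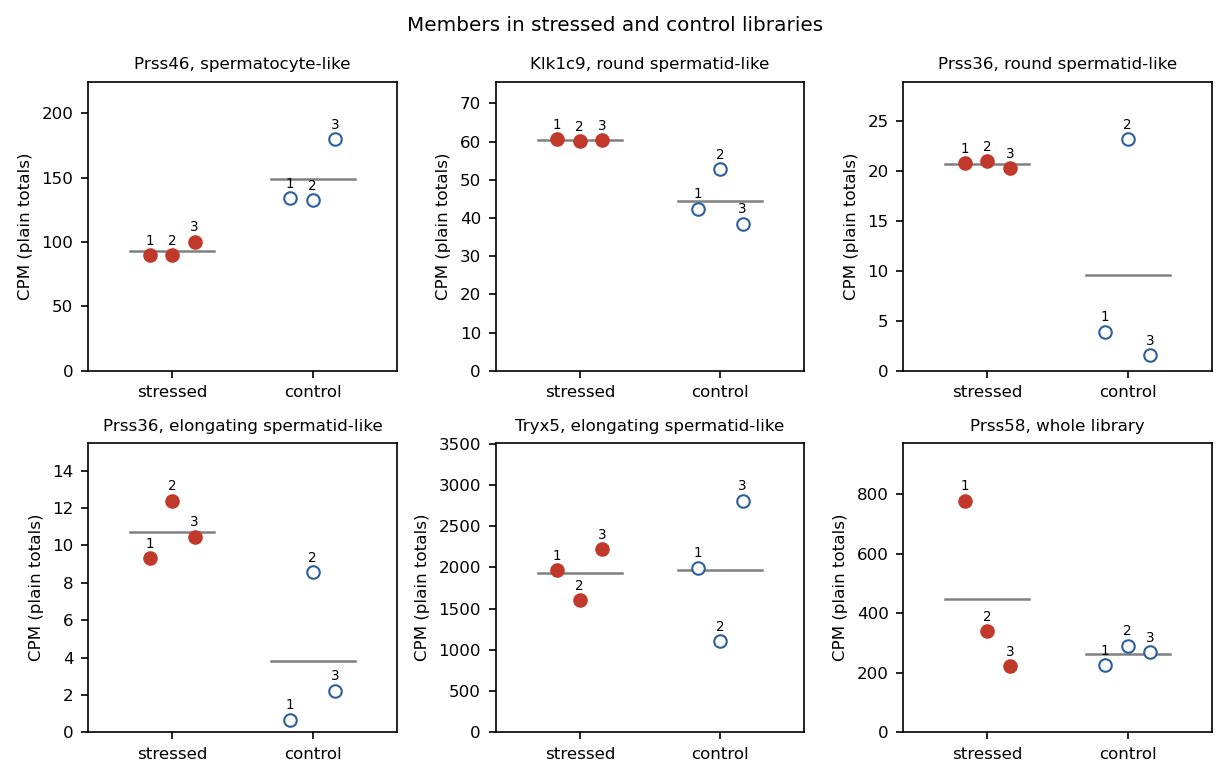
CPM of members in the 3 stressed (left, filled) and 3 control libraries (right, open), in the class named above each panel; digits are the animal numbers and grey lines the group means. Prss46 and Klk1c9 do not overlap between groups, Prss36 is low in control 1 and 3, Tryx5 overlaps, and Prss58 is high in stressed 1.

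In whole libraries, 2 members stood out through stressed 1. Prss58 had 777, 341 and 222 CPM in stressed and 225, 292 and 269 CPM in control libraries, a log2 difference of 0.97 (SE 0.45, edgeR adjusted p = 1.0). Prss58 was among the 10 leading genes of the unnamed Apoe and Fos cluster, with 1107 CPM in its cells of stressed 1 and 671 CPM in those of control 2. With that cluster left out the log2 difference was 0.17, and without stressed 1 it was 0.27. Prss23 had 3.82, 0.117 and 0.121 CPM in stressed and 0.0319, 0.312 and 0.0435 CPM in control libraries, a log2 difference of 3.54 (SE 1.53, edgeR adjusted p = 1.0), and 59 of its 64 counts in stressed 1 came from 1 cell. Without stressed 1 the Prss23 log2 difference was 0.02. Of 31 members, 2 had groups without overlap in whole libraries, Klk1c9 and Prss36, against 5.56% of all genes.

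The unnamed cluster carried members with most of the courses described. Of the late members, Tryx5 had 1655 CPM in the cells of stressed 1 and 1104 CPM in those of control 2, and Klk1c9 had 246 CPM in the cells of stressed 1 and 186 CPM in those of control 2. Of those high in steps 2 and 3 on the plain scale, Prss45 had 129.6 CPM in the cells of stressed 1 and 152 CPM in those of control 2, Prss40 had 125 CPM in the cells of stressed 1 and 111 CPM in those of control 2, and Prss39 had 65.6 CPM in the cells of stressed 1 and 58.2 CPM in those of control 2. Prss44 had 0 CPM in the cells of stressed 1 and 5.04 CPM in those of control 2, and Prss48 and Prss42 were at 0 in both. Macrophage markers summed to 690.4 CPM in the cells of stressed 1 and 205 CPM in those of control 2.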

How the data were processed

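Each sample is 1 rat, and its cells give 1 library. The deposited tables hold whole-number counts per gene and cell, per the file headers and values; the aligner, the genome build and the kind of count (reads or molecules) are not stated in these sources, and 12.4% to 18.4% of the values above 0 equal 1. The 6 normalized tables the authors deposited were not used. All cells passed the filters (at least 200 genes, at most 20% mitochondrial counts).

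Cells were clustered with scanpy 1.11.5 (2000 variable genes without the members, 30 principal components, 15 neighbours, Leiden resolution 1) and named by marker genes as germ cell classes ("-like"); a name may differ from one the authors would give. A cluster of 277 cells led by Apoe and Fos and one of 20 cells stayed unnamed. The order of steps came from diffusion pseudotime, and clusters were merged into steps after the data were seen. Doublets were kept; an alternative drops the top 5% of cells of each library by Scrublet score.

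Counts were summed per library and class (at least 20 cells) and tested over all genes in edgeR 4.0.16 (quasi-likelihood, R 4.3.3; TMM, filterByExpr, robust) with Benjamini-Hochberg adjustment, at 0.05. The procedure was tested on simulated data. CPM values use plain totals, and log2 differences use TMM factors. Alternatives were DESeq2 1.42.0, RLE scaling, plain totals, no filter, other clusterings, 50 cells, doublets, the replicate block and each library left out. P-values between stressed and control rats measure the spread between 3 animals a group. Those between classes measure the spread, over the 6 libraries of both groups, of the difference within a library.

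Members given per library are those with a mean of 10 CPM in a class or an unadjusted p under 0.05 between the groups. Of the gene lists, acrosin and its partners and, per transition, the genes with the smallest p in each direction were open to naming. The members and lists were chosen with earlier results of these data known. Adam3 and Prm1 were not analysed here. Promoter sequences are those of RefSeq, assembly GRCr8. Total counts per library ranged from 16756543 to 114984746, which sets the precision of low values. Intervals and SDs cover these animals only.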

Additional observations from a re-analysis of the deposited data

Results flagged for a closer look

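The differences between classes were taken per library as log2 ratios of CPM, in 35 groups of 6 libraries, and 1 library lay far from the rest in 6 of them. Chance flags about 5% of such groups when they are independent. These groups reuse the same 6 libraries and class sums, and the share flagged over all genes is not given. No excess is therefore read. Stressed 1 was the outlying library in 5 of the 6. In elongating minus round spermatid-like cells, its log2 difference was 0.42 for Prss40, against -0.46 to -0.16 in the other 5 libraries. For Prss46 it was 0.43, against -0.28 to -0.13. For Prss39 it was 0.11, against -1.57 to -1.10, and for Prss21 it was -1.28, against -2.54 to -2.06. In round spermatid-like minus spermatocyte-like cells, stressed 1 had -2.80 for Tmprss11e, against -1.39 to -0.69. The elongating spermatid-like class of stressed 1 held 60 cells, and 66.7% of them lay in the cluster led by Dcdc2c and Fam71a, against 9.29% to 16.2% in the other libraries; the part of this makeup in the values was not tested. In round spermatid-like minus spermatocyte-like cells, control 3 had 1.14 for Prss46, against 1.90 to 2.20.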

How the results depend on the processing

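Between stressed and control rats, 0 members were called under each alternative run. Plain totals in place of TMM moved the counts between classes: 8 members were lower in round spermatid-like than in spermatocyte-like cells, and 7 were higher and 11 lower in elongating than in round spermatid-like cells. Leaving out 1 library gave 3 to 7 lower members between round spermatid-like and spermatocyte-like cells, with the 7 without control 3. Of all genes, 6881 to 8097 were called in either direction in these fits. With TMM factors, 5, 1 and 14 of 20 members were highest in spermatocyte-like, round and elongating spermatid-like cells, against 9, 4 and 7 with plain totals. Of all 7627 genes with a mean of 10 CPM in a class, the shares were 42.3%, 22.2% and 35.5% with TMM. With plain totals they were 59.4%, 26.1% and 14.6%. The spermatocyte-like members include Prss23, which rests on 1 cell.

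Plain totals turned the sign for Prss40 (-0.21 and -0.20 at the earlier and later transition), Prss21 (-0.37, earlier) and, at the later one, Prss46 (-0.11), Prss54 (-0.80), Prss45 (-0.32), Tmprss9 (-0.53) and Prss36 (-1.04). The other turned values belong to members that were not called. Prss39 was 0.013 with DESeq2 and 0.016 with RLE at the earlier transition, 0.12 with both at the later, and -0.094 to 0.016 there without 1 library. Prss42 at the later one was 0.12 with DESeq2, 0.14 with RLE, 0.0099 without likely doublets and -0.15 to 0.27 without 1 library. Prss36 there was -0.030 with no filter, -0.056 with members kept among the clustering genes, -0.061 and -0.038 at resolutions 0.5 and 2, -0.020 without likely doublets and -0.28 to 0.36 without 1 library. Prss21 at the earlier one was -0.064 with at least 50 cells and -0.064 to 0.21 without 1 library. The cause was not tested.

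Replicate numbers did not pair the animals: correlations of same-numbered libraries were -0.139, -0.0132 and 0.213. The replicate block between groups left 0 members called. With no replicate block between classes, 11 members were higher and 3 lower at the earlier transition and 12 and 4 at the later, and Prss42 and Prss36 at the later one were 0.060 and -0.00099. Of all genes, 7226 and 7029 were called in either direction without the block, against 7648 and 7782 with it. Low counts limit members such as Prss42 and Prss23. Leaving control 2 out of the step means of Prss42 was chosen after seeing the data.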
